A study of Drosophila melanogaster with 7 samples.

Results

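The genes described here are the fly genes of the vacuolar proton pump (V-ATPase, symbols starting with Vha) and the vacuolar protein sorting genes (symbols starting with Vps and a digit). They were taken by symbol from the probe sets that carry a single gene symbol, with Vps15 left out, and each gene was read from its probe set with the brightest mean over the 7 arrays. This gave 57 genes, 31 Vha and 26 Vps, of 11982 genes with such a probe set. Only Vha16-1 had a second probe set, which is given beside the first. All 57 matched the Release 6 gene table of RefSeq by Entrez gene under the same symbol. That table holds 59 genes fitting the rule, and Vha68-1 and Vha68-2, both catalytic A subunits, were not analysed here. Of the genes analysed, only Vha100-4 and Vha100-2 are direct neighbours in that table.

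RNA from salivary glands of fly prepupae was measured on Affymetrix arrays, 1 array per sample, as dChip intensities on a linear scale. The yeast transcription activator GAL4, absent from normal flies, was supplied by a heat-inducible transgene. Animals with 2 copies of P{hs-GAL4}X1, called X1 here, gave 3 arrays. P{GAL4-Hsp70.PB}89-2-1, called line 89, gave 1 array at 2 copies and 1 at a single copy. The strain w1118 carries no GAL4 and gave 2 arrays. The series text describes the X1 and the w1118 arrays as biological replicates. Rearing was at 25 °C, the heat shock lasted 30 min at 37 °C, and glands were taken at 14 h after puparium formation. The heat shock came at 9 h in X1 and line 89 but at 9.5 h in w1118. GAL4, heat shock time and strain background hence cannot be told apart where w1118 is compared, whereas X1 and line 89 share the heat shock time. A heat-shock promoter is not specific to the salivary gland.

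The V-ATPase is a rotary pump that uses ATP to move protons into endosomes, lysosomes and secretory granules. Its soluble V1 sector splits ATP, and its membrane V0 sector carries the protons through a ring of c subunits. Vps proteins act on the traffic that meets these acid compartments: ESCRT complexes sort ubiquitylated cargo into multivesicular bodies, retromer retrieves receptors from endosomes, HOPS and CORVET tether endosomes and lysosomes, and GARP and EARP tether vesicles returning from or recycling through endosomes. Fly salivary glands secrete their glue by the time of puparium formation and are later removed by steroid-triggered cell death with autophagy.

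The salivary gland genes Eig71Ea and Eig71Ed were bright on all arrays, and others such as ng1 were dim on most. Eig71Ea read 13736 to 14135 in X1, 12824 and 13701 in line 89 and 12948 and 13285 in w1118. X1 replicate 1 stood apart from the other X1 arrays: 30% of its fly probe sets lay under 16 units, against 18.8% to 23.7% on the other 6 arrays, and it correlated with the other X1 arrays at 0.957 and 0.958 over probe sets, where the other two correlated at 0.985. Spiked hybridization controls averaged 9.97 to 10.47 log2 units in X1, 10.38 and 10.14 in line 89 with 2 copies and with 1 copy, and 10.78 and 10.90 in w1118. Values under 16 were raised to 16 before taking log2, and a gene was called changed at a limma Benjamini-Hochberg adjusted p under 0.05 over 18769 fly probe sets. Since the glands are bulk samples, fewer cells of a type and less RNA per cell cannot be told apart.

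In X1 against w1118, 10 of the 57 genes rose and 7 fell. The V-ATPase and the Vps genes split: 8 of 31 Vha genes rose and 0 fell, whereas 2 of 26 Vps genes rose and 7 fell. The genes that rose include the c ring of the pump (Vha16-1 and VhaPPA1-1) and the stalk subunits Vha26 and Vha36-1, and those that fell include Vps51 of GARP and EARP and both genes of the VPS33B-VPS16B complex. Of all fly probe sets 7.5% were called higher and 10.6% lower, against 17.5% and 12.3% of the 57 genes. At an unadjusted p under 0.05 there were 28 of the 57 genes, against 33.1% of all fly probe sets. The X1 and w1118 arrays did not overlap for 19 genes that were higher and 22 that were lower, where 19.4% and 33.4% of all fly probe sets did so (52.8% in either direction). Bright probe sets were called higher more often: among those with a 7-array mean of at least 100, 18.7% were higher and 11.8% lower, beside 8 and 4 of the 35 genes that reach this mean (22.9% and 11.4%). For all 35 together these shares are near the background. By family, 6 of 16 Vha genes were higher (37.5%) and 0 lower, and 2 of 19 Vps genes were higher (10.5%) and 4 lower (21.1%). The median log2 change was 0.21 for Vha genes and -0.65 for Vps genes, beside -0.09 for all fly probe sets. With a 7-array mean of at least 100 the medians were 0.35 for Vha and -0.11 for Vps genes, beside -0.05 for all such probe sets. The 15 dimmer Vha genes had a median of -0.06 and the 7 dimmer Vps genes one of -0.75.

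The counts depend on scaling and on single arrays. Scaling the arrays to the hybridization controls moved the median change of all fly probe sets to 0.25 and gave 13 of the 57 genes higher and 2 lower (8 and 0 Vha, 5 and 2 Vps), and 2020 higher and 530 lower over all probe sets in place of 1407 and 1997. Quantile normalization gave 4 higher and 9 lower (3 and 1 Vha, 1 and 8 Vps), and 1511 higher and 1919 lower over all probe sets. The Vha and Vps medians were 0.88 and 0.01 with the hybridization controls, beside 0.25 for all probe sets, and 0 and -0.55 after quantile normalization, beside 0. With the hybridization controls Vps24, Vps33B, Vps13D, Vps29 and Vps16A lost their calls, at -0.78, -0.77, -1.07, -0.08 and -0.08. After quantile normalization Vha16-1 and Vha26 lost theirs, at 0.25 and 0.52, and so did Vha36-1, Vha36-2, VhaM9.7-b and Vps2. Without X1 replicate 1 the counts were 12 higher and 9 lower, without X1 replicate 2 they were 1 and 4, without X1 replicate 3 they were 1 and 2, without w1118 replicate 1 they were 2 and 3, and without w1118 replicate 2 they were 3 and 3. Over all fly probe sets the same omissions gave 1939 and 2231, 771 and 848, 738 and 925, 692 and 1623, and 730 and 1653. In these fits Vha genes had 1 to 6 higher and 0 or 1 lower, and Vps genes 0 to 6 higher and 2 to 9 lower.

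**Figure D1:**
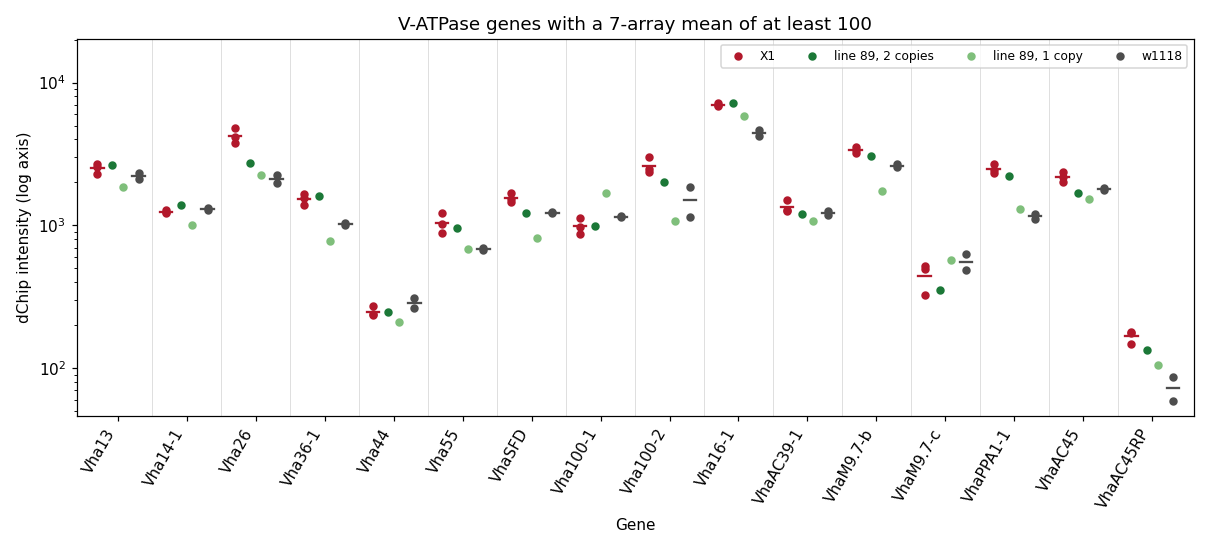
dChip intensity on a log axis of the 16 V-ATPase genes with a 7-array mean of at least 100, V1 genes first, then V0 and accessory genes. Each point is 1 array, and short lines mark the means of the 3 X1 and the 2 w1118 arrays. VhaPPA1-1, Vha26 and Vha16-1 have every X1 array above both w1118 arrays. Points of different genes come from different probe sets and are not comparable in level.

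The V1 sector had 11 measured genes, of which 3 rose and 0 fell in X1, where 7.5% of all fly probe sets were called higher and 18.7% of those with a 7-array mean of at least 100. Vha26 encodes the E subunit of the peripheral stalk and was the brightest V1 probe set. It read 4781, 4158 and 3754 in X1, 2727 (2 copies) and 2259 (1 copy) in line 89, an order kept below, and 2240 and 1973 in w1118. All X1 arrays lay above the other 4, and the log2 change of X1 over w1118 was 1.00 ± 0.14 (limma standard error, adjusted p = 0.0222). Vha36-1, the D subunit of the rotor, read 1384, 1551 and 1654 in X1, 1603 and 773 in line 89, and 1009 and 1035 in w1118. X1 and the 2-copy array of line 89 were above w1118 and the 1-copy array below it, and the X1 change was 0.58 ± 0.10 (limma adjusted p = 0.0331), or 0.21 after quantile normalization (limma adjusted p = 0.23).

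The third V1 gene that rose was dim. Vha36-2, a D subunit paralog, read 44.1, 32.7 and 29.2 in X1, 11.2 and 16.4 in line 89, and 7.53 and 10.2 in w1118. Both w1118 arrays lay under 16, so X1 was at least 2.18-fold higher (limma adjusted p = 0.0425), and with a floor of 64 units the change was 0. The nucleotide-binding B subunit Vha55 read 1230, 1021 and 884 in X1, 960 and 684 in line 89, and 678 and 691 in w1118, without overlap between X1 and w1118. Its change of 0.60 ± 0.16 did not pass (limma adjusted p = 0.095). The H subunit VhaSFD had a change of 0.34 ± 0.07 (limma adjusted p = 0.0625), and the other V1 genes lay between -0.22 (Vha36-3) and 0.87 (Vha14-2), both dim.

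The V0 sector had 18 measured genes, of which 4 rose and 0 fell, against the same background of 7.5% and 18.7% higher. VhaPPA1-1, the c'' subunit of the proteolipid ring, read 2345, 2672 and 2437 in X1, 2214 and 1299 in line 89, and 1207 and 1107 in w1118. The X1 arrays were all above the w1118 arrays, by a log2 change of 1.10 ± 0.09 (limma adjusted p = 0.0066), and the line 89 arrays lay between. Vha16-1, the main c subunit of the ring, read 6934, 7225 and 6816 in X1, 7221 and 5787 in line 89, and 4645 and 4198 in w1118. All 5 GAL4 arrays exceeded both w1118 arrays, and the X1 change was 0.66 ± 0.07 (limma adjusted p = 0.0119), or 0.25 without a call after quantile normalization. Its second probe set gave 5110, 5721 and 5592 in X1, 5302 and 3829 in line 89, and 3747 and 3096 in w1118, a change of 0.68 ± 0.11 (limma adjusted p = 0.0342).

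VhaM9.7-b, an e subunit, read 3194, 3553 and 3392 in X1, 3077 and 1756 in line 89, and 2677 and 2552 in w1118. Its change was small, 0.37 ± 0.07 (limma adjusted p = 0.0411), and turned to -0.11 after quantile normalization. Vha16-2, a c subunit paralog, was dim, with 75.3, 57.4 and 70.0 in X1, 63.0 and 36.1 in line 89, and 34.2 and 41.2 in w1118. X1 did not overlap w1118, with a change of 0.84 ± 0.17 (limma adjusted p = 0.0489). Among V0 genes that did not pass, the a subunit Vha100-2 had a change of 0.84 ± 0.27 (limma adjusted p = 0.127) and Vha100-1 one of -0.23 ± 0.13 (limma adjusted p = 0.341). Of the 19 Vha genes outside the epithelial set described next, 14 stayed under 100 units on every array.

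The accessory subunits VhaAC45 and VhaAC45RP belong to the family of Ac45, which guides the pump. VhaAC45 read 2173, 2381 and 1998 in X1, 1678 and 1531 in line 89, and 1765 and 1828 in w1118. X1 lay highest, though the change of 0.28 ± 0.09 did not pass (limma adjusted p = 0.142). VhaAC45RP read 180, 147 and 176 in X1, 135 and 105 in line 89, and 59.4 and 86.7 in w1118. Its arrays fell in the order X1, line 89, w1118 without overlap, and X1 rose by 1.22 ± 0.21 (limma adjusted p = 0.038).

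A set of 13 Vha genes known as the isoforms that make up the pump of fly epithelia was listed, with earlier results of these data known. Of these, 12 were measured, none under 211 units on any array. In X1 against w1118, 5 of the 12 rose and 0 fell, 10 had a positive change and the median was 0.47, beside -0.09 for all fly probe sets. After quantile normalization only VhaPPA1-1 of these 5 kept its call, and VhaM9.7-b turned to -0.11. With the hybridization controls all 5 kept theirs. Of fly probe sets with a 7-array mean of at least 100, which all 12 genes reach, 18.7% were called higher and 47.5% were positive. The other 19 Vha genes had 3 higher, 0 lower and a median of -0.06. In X1 against line 89 all 12 changes were positive, with a median of 0.40, where 35.5% of all fly probe sets were positive, and in 6 of the 12 the X1 arrays all lay above both line 89 arrays, against 11.4% of all fly probe sets. Of these 12, 0 passed in limma against line 89, and 2 had an unadjusted p under 0.05. Of all fly probe sets with a 7-array mean of at least 100, 42.5% were positive and 16.7% had X1 above both line 89 arrays. The line 89 group holds the 1-copy array, which lay below every X1 array in all 12. The 2-copy array, with the copy number of X1, did so in 6 of the 12. Of fly probe sets with this mean, 30.2% and 30% did so.

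**Figure D2:**
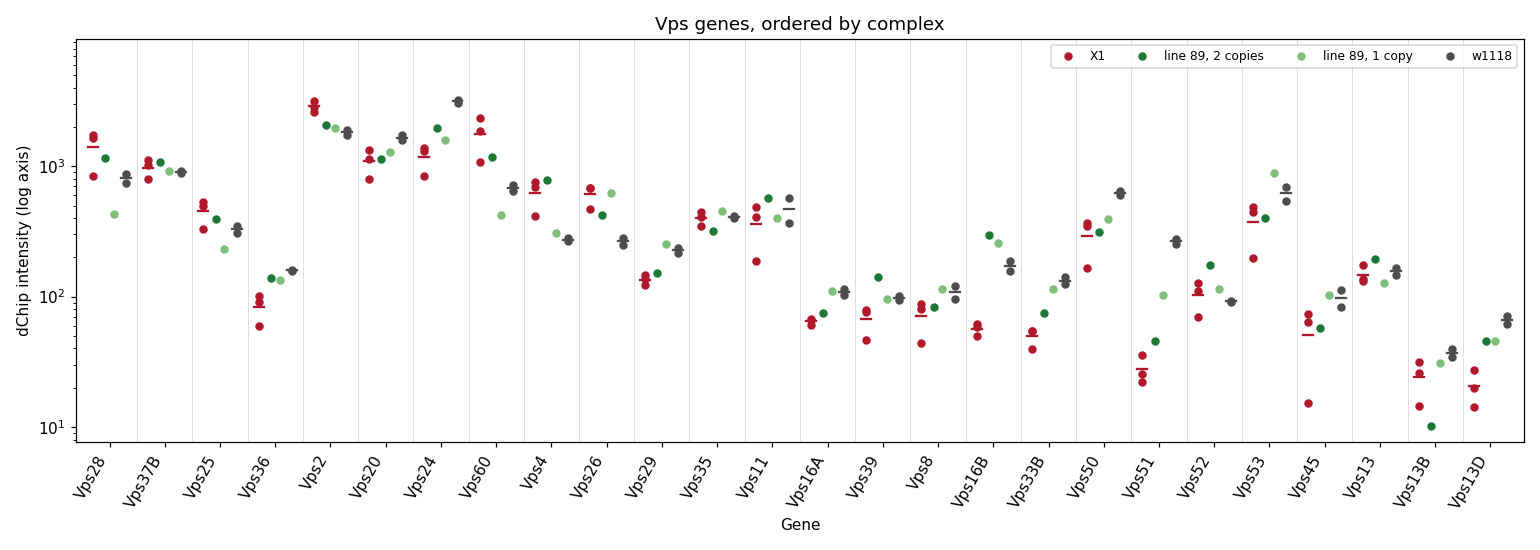
dChip intensity on a log axis of the 26 Vps genes, ordered by complex from ESCRT to lipid transfer. Each point is 1 array, and short lines mark the means of the 3 X1 and the 2 w1118 arrays. Vps51 and Vps33B have all X1 arrays below all others, Vps16B has X1 below and line 89 above w1118, and for most genes 1 X1 array, replicate 1, lies below the other two.

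ESCRT genes moved in both directions. In ESCRT-I, which hands cargo onward, Vps28 read 839, 1723 and 1648 in X1, 1148 and 428 in line 89, and 879 and 745 in w1118. X1 replicate 1 lay among the w1118 arrays and the other two above them, and the change of 0.72 ± 0.40 did not pass (limma adjusted p = 0.319). Vps25 of ESCRT-II, whose loss causes tissue overgrowth in flies, read 331, 497 and 533 in X1, 396 and 231 in line 89, and 347 and 309 in w1118. Here too replicate 1 lay between the w1118 arrays, and the change was 0.44 ± 0.26 (limma adjusted p = 0.343). Vps4, the AAA ATPase that takes ESCRT-III apart, read 418, 756 and 689 in X1, 783 and 307 in line 89, and 266 and 281 in w1118. All GAL4 arrays exceeded w1118, with a change of 1.14 ± 0.31 in X1 that did not pass (limma adjusted p = 0.0937).

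ESCRT-III forms the filaments that cut vesicles off into the endosome. Of its 4 measured Vps-named genes Vps2 rose and Vps24 fell in X1, and ESCRT genes with other names are given below. Vps2 read 2628, 3194 and 2834 in X1, 2085 and 1957 in line 89, and 1898 and 1737 in w1118, a change of 0.66 ± 0.11 (limma adjusted p = 0.0336), or 0.20 after quantile normalization (limma adjusted p = 0.072). Vps24 read 849, 1313 and 1390 in X1, 1967 and 1577 in line 89, and 3076 and 3235 in w1118, a change of -1.45 ± 0.26 (limma adjusted p = 0.041). X1 was highest for Vps2 and lowest for Vps24, with line 89 in between for both. Vps60 read 1081, 2332 and 1876 in X1, 1169 and 424 in line 89, and 715 and 640 in w1118. X1 did not overlap w1118, and its change of 1.31 ± 0.39 did not pass (limma adjusted p = 0.11).

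X1 replicate 1 was the lowest X1 array for 23 of 26 Vps genes (88.5%), for 10 of 31 Vha genes (32.3%) for 51.1% of all fly probe sets and for 58.7% of those with a 7-array mean of at least 100. Without it Vps4, Vps60, Vps28 and Vps25 passed as higher, at log2 changes of 1.40, 1.63, 1.06 and 0.65 (limma adjusted p = 0.012, 0.0236, 0.0272 and 0.0409), and Vps50 and Vps36 as lower, at -0.80 and -0.74 (limma adjusted p = 0.0178 and 0.0274). These genes were picked by this omission after their values were seen.

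Retromer had 3 measured genes, with Vps26 higher, Vps29 lower and Vps35 near 0. Vps26 read 471, 685 and 683 in X1, 419 and 620 in line 89, and 280 and 251 in w1118. Every GAL4 array exceeded w1118, and X1 rose by 1.19 ± 0.22 (limma adjusted p = 0.0412). Vps29 read 122, 146 and 136 in X1, 152 and 254 in line 89, and 237 and 215 in w1118. X1 and the 2-copy array lay below w1118 and the 1-copy array above it, and the X1 change was -0.75 ± 0.10 (limma adjusted p = 0.0231). Vps35, the scaffold of the complex, had a change of -0.03 ± 0.13 (limma adjusted p = 0.937).

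Of the 4 measured Vps-named genes of HOPS and CORVET, Vps16A fell and the others did not pass. The subunits with other names, dor, car and lt, did not pass either, at -0.96, -0.46 and 0.74. Vps16A, which flies need for the fusion of autophagosomes with lysosomes, read 66.6, 60.4 and 66.8 in X1, 74.9 and 111 in line 89, and 114 and 103 in w1118. X1 lay below all other arrays, with a change of -0.75 ± 0.08 (limma adjusted p = 0.0135). The core subunit Vps11 was the brightest probe set of the group, with 188, 408 and 486 in X1, 576 and 398 in line 89, and 571 and 368 in w1118. Its X1 and w1118 arrays overlapped, and the change was -0.46 ± 0.53 (limma adjusted p = 0.622).

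Vps16B and Vps33B form a separate complex, related to HOPS, which acts in phagosome maturation in flies. Vps16B read 50.3, 58.4 and 61.6 in X1, 297 and 257 in line 89, and 188 and 156 in w1118. The 3 groups did not overlap, with X1 lowest and line 89 highest. X1 was 3.03-fold below w1118, a log2 change of -1.60 ± 0.14 (limma adjusted p = 0.00862). Vps33B read 39.5, 54.2 and 54.9 in X1, 74.8 and 114 in line 89, and 140 and 126 in w1118. Its groups did not overlap either, in the order X1, line 89, w1118 from low to high, and the X1 change was -1.44 ± 0.19 (limma adjusted p = 0.021).

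GARP and EARP had 4 measured Vps-named genes. Vps51, a shared subunit of both, had the largest change of the 57 genes in X1 against w1118. It read 25.3, 35.5 and 22.0 in X1, 45.3 and 103 in line 89, and 276 and 254 in w1118. All 5 GAL4 arrays lay below w1118, X1 furthest, by 9.79-fold or a log2 change of -3.29 ± 0.24 (limma adjusted p = 0.00598). Vps53, the brightest of the group, read 196, 489 and 445 in X1, 402 and 895 in line 89, and 699 and 545 in w1118. X1 lay below w1118 with a wide spread, and the change of -0.82 ± 0.50 did not pass (limma adjusted p = 0.363).

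Single genes of other functions completed the list. Vps45, which works with SNAREs in endosomal fusion, read 15.3, 63.4 and 73.5 in X1, 57.0 and 103 in line 89, and 113 and 83.3 in w1118. X1 replicate 1 lay far below the other two, and the change of -1.20 ± 0.82 did not pass (limma adjusted p = 0.406). Vps13, a bridge-like lipid transfer protein, read 131, 175 and 136 in X1, 193 and 128 in line 89, and 167 and 148 in w1118, with overlapping groups and a change of -0.11 ± 0.17 (limma adjusted p = 0.714). Its relative Vps13D, needed in flies for the clearance of mitochondria, was dim, with 14.3, 27.3 and 20.0 in X1, 45.9 and 45.9 in line 89, and 61.7 and 71.4 in w1118. Its groups did not overlap, with X1 lowest, and the X1 change was -1.69 ± 0.27 (limma adjusted p = 0.0314).

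**Figure D3:**
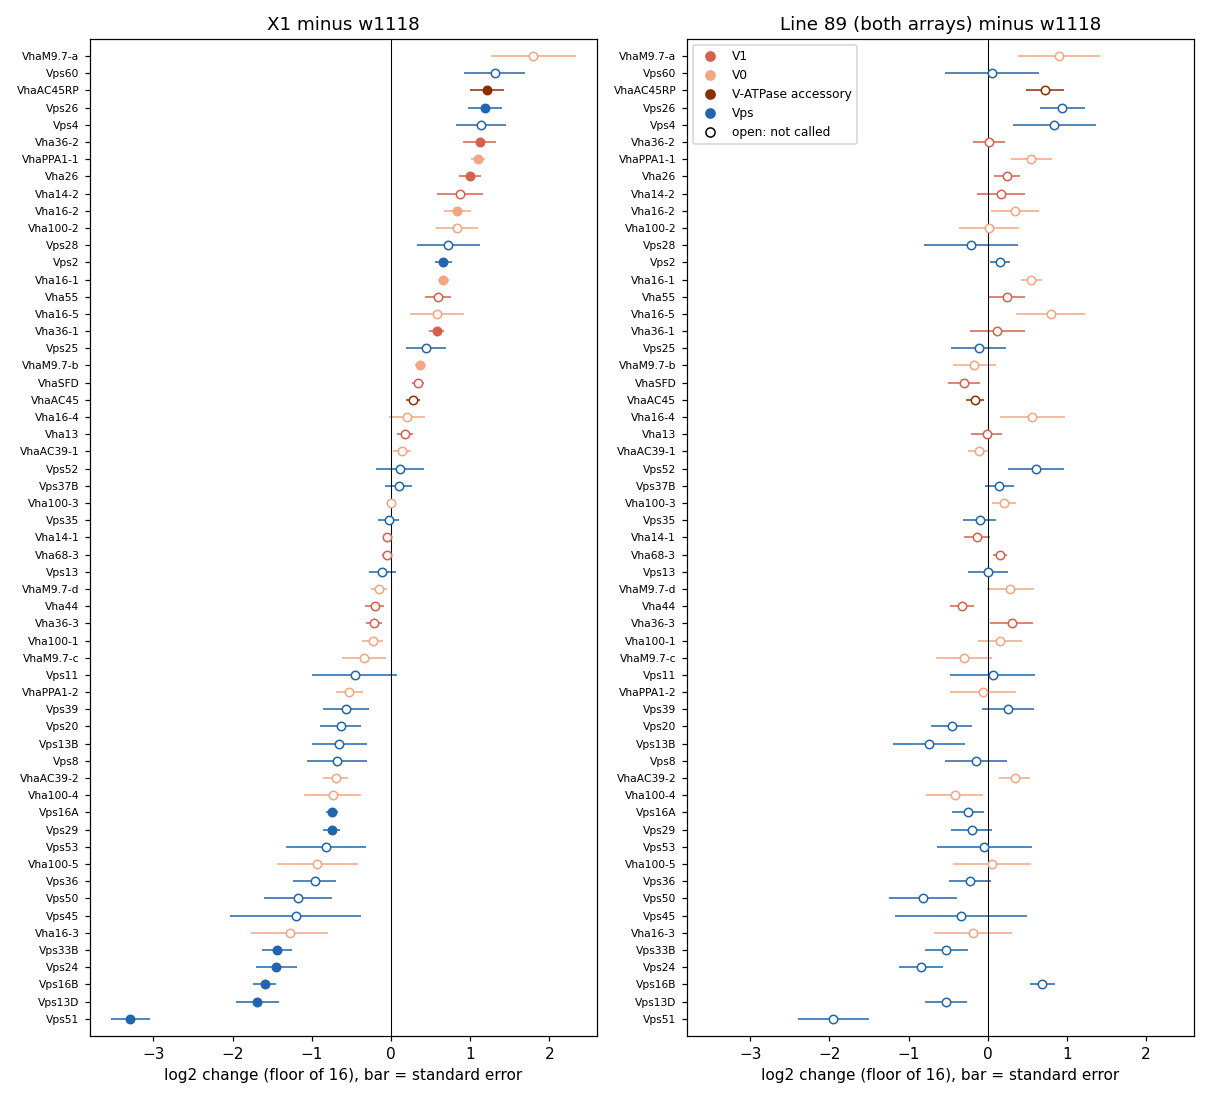
Log2 change of each of the 57 genes for X1 minus w1118 (left) and line 89 minus w1118 (right), in the order of the X1 change, with the limma standard error as a bar. Filled points passed an adjusted p under 0.05, open points did not. The left panel has 17 filled points, 10 higher and 7 lower, and the right has 0. VhaM9.7-b, filled on the left, turns to -0.11 after quantile normalization. Both panels share the w1118 arrays but come from different fits. The left used 5 arrays, and the right all 7, with the copy number difference in line 89 counted as spread. In the 7-array fit X1 had 7 genes higher and 5 lower.

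Line 89 was compared with the same w1118 arrays, both of its arrays as 1 group. Of the 57 genes 0 passed in limma, and 6 had an unadjusted p under 0.05, beside 4.38% of all fly probe sets that passed (2.73% higher and 1.65% lower) and 17.9% with an unadjusted p under 0.05. The line 89 and w1118 arrays did not overlap for 16 genes that were higher and 12 that were lower, against 22.4% and 23% of all fly probe sets (45.5% in either direction). Of the genes named above, Vps51 stood at -1.95 ± 0.45 (limma adjusted p = 0.1), Vps26 at 0.94 ± 0.28 (limma adjusted p = 0.171) and Vps16B at 0.69 ± 0.16 (limma adjusted p = 0.1). Vha16-1 lay at 0.55 ± 0.13 (limma adjusted p = 0.111) and VhaPPA1-1 at 0.55 ± 0.26 (limma adjusted p = 0.392). Vha genes had a median of 0.16 and Vps genes one of -0.13. Without the 1-copy array line 89 is a single array, assumed to vary like the other groups. VhaPPA1-1 (0.94), Vha16-1 (0.71) and the dim Vha100-3, with both w1118 arrays under 16, then passed as higher and Vps51 (-2.55) as lower, beside 1201 higher and 603 lower over all fly probe sets (513 and 309 with both arrays).

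X1 and line 89 share the heat shock time but differ in transgene line and in GAL4 copy number. X1 has 2 copies, whereas 1 of the line 89 arrays has 1, so line and copy number are mixed where both line 89 arrays form 1 group. The 2-copy array has the copy number of X1 but is a single array. Without the 1-copy array the change of Vps16B, described below, was -2.39. The median change of Vha genes was 0.12 with both line 89 arrays, 0.31 without the 2-copy array and -0.0046 without the 1-copy array. For Vps genes these medians were -0.50, -0.42 and -0.26. Vps16B alone of the 57 genes passed between X1 and line 89, against 1.98% of all fly probe sets (0.73% higher and 1.25% lower), and 14 genes had an unadjusted p under 0.05, against 19.3%. The arrays did not overlap for 12 genes that were higher in X1 and 15 that were lower, against 11.4% and 23.8% of all fly probe sets (35.2% in either direction). For Vps16B, X1 was lower by a log2 change of -2.29 ± 0.14 (limma adjusted p = 0.013), from the array values given above. Without X1 replicate 2 or X1 replicate 3 0 of the 57 genes passed in limma and 0 of all fly probe sets did, while 11 and 12 of the 57 had an unadjusted p under 0.05. Vha26 stood higher in X1 by 0.76 ± 0.15 (limma adjusted p = 0.0877), and VhaAC39-2, a dim d subunit paralog, lower by a change of -1.04 ± 0.18 (limma adjusted p = 0.0664). Vha36-2, read at 11.2 and 16.4 in line 89 and so at or next to the floor, did not pass either (limma adjusted p = 0.0674). With 1 line 89 array left out, the other is again assumed to vary like the other groups. Without the 2-copy array 4 genes passed as higher (VhaM9.7-b, Vha36-1, VhaSFD and VhaPPA1-1, at 0.93 to 0.98) and 3 as lower (Vps16B, Vps29 and Vps16A), beside 408 higher and 730 lower over all fly probe sets, in place of 137 and 234. Without the 1-copy array, Vps16B and Vha100-3 passed as lower, beside 199 higher and 786 lower over all, and without X1 replicate 1, Vha36-2 passed as higher beside Vps16B.

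Copy number in line 89 was compared between 1 array each, so these differences have no replicate check. With 2 copies 6 of the 57 genes were over 2-fold higher (10.5%) and 2 over 2-fold lower (3.51%), where 10.7% of all fly probe sets were higher and 7.75% lower. The genes higher with 2 copies and of at least 100 units were Vps60 (1169 against 424, log2 1.46), Vps28 (1148 against 428, log2 1.42), Vps4 (783 against 307, log2 1.35) and Vha36-1 (1603 against 773, log2 1.05). Vps60, Vps28 and Vps4 are ESCRT genes. Lower were Vps51 (45.3 against 103, log2 -1.19) and Vps53 (402 against 895, log2 -1.16), both of GARP and EARP. The other Vps-named ESCRT genes ranged from -0.19 (Vps20) to 0.78 (Vps25), and Vps50 and Vps52 of GARP and EARP stood at -0.33 and 0.60. At equal copy number the X1 arrays spanned 1081 to 2332 for Vps60, 839 to 1723 for Vps28 and 196 to 489 for Vps53. For Vps4, Vha36-1 and Vps51 they spanned 418 to 756, 1384 to 1654 and 22.0 to 35.5. For the 12 measured genes of the epithelial pump the 2-copy array read higher in all 12, where 45.5% of all fly probe sets did, and exceeded both w1118 arrays in 9, where 41.2% of all did. The 1-copy array lay below every X1 array in all 12, against 24.2% of all fly probe sets and 30.2% of those with a 7-array mean of at least 100. These copy number differences depend on scaling. The median of the 57 genes was 0.23 as reported, 0.22 after quantile normalization and -0.002 with the hybridization controls. For all fly probe sets it was 0, 0 and -0.08. The smallest of the 12 ratios as reported were 0.16 (VhaAC39-1) and 0.23 (Vha44).

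**Figure D4:**
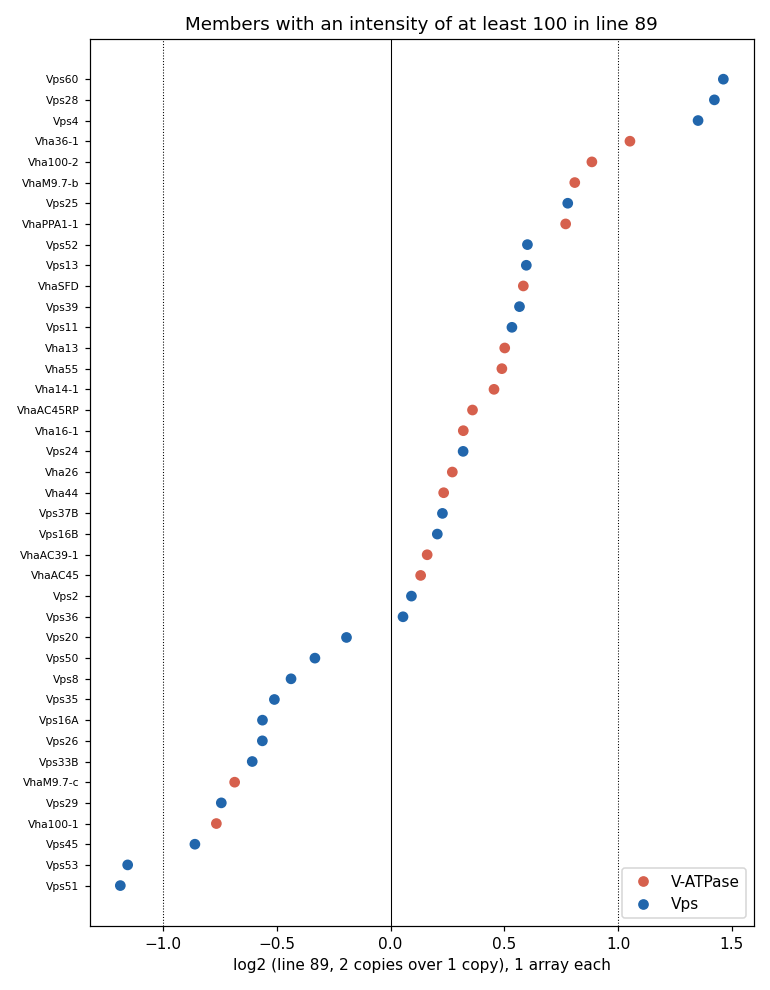
Log2 ratio of line 89 with 2 copies over 1 copy, 1 array each, for the 40 genes with at least 100 units on either array. Dotted lines mark 2-fold. Of these genes 27 are higher with 2 copies. Vps60, Vps28, Vps4 and Vha36-1 lie past 2-fold to the right, and Vps51 and Vps53 past it to the left. Scaling to the hybridization controls, not drawn here, moves the median of all 57 genes from 0.23 to -0.002.

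Endolysosomal genes with other names gave the surrounding pathway, with 80 genes measured. A further 29 listed names were not analysed here, and some of these repeat a gene under another spelling. In X1 against w1118, 14 rose and 6 fell (17.5% and 7.5%), where 7.5% and 10.6% of all fly probe sets did, and 18.7% and 11.8% of those with a 7-array mean of at least 100. Added after the data were seen, quantile normalization gave 10 higher and 14 lower, and scaling to the hybridization controls 16 higher and 0 lower, so the 6 genes that fell did not pass after that second scaling, though each kept its sign. Of 11 further ESCRT genes 4 rose and 0 fell, and quantile normalization gave 2 higher and 1 lower. Those that rose include ALiX, which binds ESCRT-III, at 1.12 ± 0.14, Chmp1 at 1.37 ± 0.19, and TSG101 of ESCRT-I at 0.52 ± 0.09 (limma adjusted p = 0.0193, 0.0223 and 0.0368). TSG101 dropped to 0.11 after quantile normalization (limma adjusted p = 0.232). Chmp1 read 1563, 2213 and 2128 in X1, 1649 and 931 in line 89, and 759 and 750 in w1118, so every GAL4 array exceeded w1118.

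Of 11 further tethering and Rab genes 0 rose and 3 fell, while scaling to the hybridization controls gave 2 higher and 0 lower. The endosomal fusion factor Rbsn-5 had a change of -1.13 ± 0.09 (limma adjusted p = 0.00771), and Mon1 and Ccz1, which together activate Rab7, had -1.06 ± 0.18 and -0.93 ± 0.16 (limma adjusted p = 0.0342 and 0.0369). Mon1 read 50.1, 68.3 and 56.0 in X1, 100.3 and 109 in line 89, and 132 and 110 in w1118, with X1 below all others. Of 5 genes that regulate the pump or signal from lysosomes, ATP6AP2, an accessory protein of the V-ATPase, rose by 0.46 ± 0.06 (limma adjusted p = 0.0202) and stood at -0.0069 after quantile normalization. Lamtor4 and RagC-D, of the machinery that brings TOR to the lysosome, fell, at -0.93 ± 0.05 and -0.99 ± 0.18 (limma adjusted p = 0.00388 and 0.0414).

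Of 26 hydrolases 3 rose and 0 fell, while quantile normalization gave 3 higher and 4 lower. The hexosaminidase Hexo2 read 2098, 1623 and 1305 in X1, 1184 and 346 in line 89, and 52.3 and 56.4 in w1118. All GAL4 arrays were above w1118, with changes of 4.92 ± 0.24 in X1 (limma adjusted p = 0.00261) and 3.56 in line 89 (limma adjusted p = 0.0499). CDase, a neutral ceramidase and so not a typical lysosomal enzyme, rose by 1.37 ± 0.11 in X1 and Ids, an iduronate sulfatase, by 0.60 ± 0.12 (limma adjusted p = 0.00686 and 0.048). Of 12 lysosomal membrane genes 3 rose and 0 fell, and quantile normalization gave 2 higher and 2 lower. ClC-c, a chloride transporter of endosomal membranes, read 6403, 7136 and 6720 in X1, 2475 and 1722 in line 89, and 1522 and 1567 in w1118. X1 stood apart from all others, higher by 2.13 ± 0.07 than w1118 (limma adjusted p = 0.00133) and by 1.71 than line 89 (limma adjusted p = 0.0324). Cln7 and Cln3, relatives of human genes of neuronal ceroid lipofuscinosis, rose by 0.88 ± 0.12 and 2.14 ± 0.42 (limma adjusted p = 0.0239 and 0.0473).

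Of 15 partners of retromer and endosomal lipid genes 3 rose and 1 fell. The sorting nexin Snx3 read 9919, 10088 and 9563 in X1, 5556 and 8484 in line 89, and 2635 and 2232 in w1118. Both GAL4 lines were above w1118, at 2.02 ± 0.09 in X1 and 1.5 in line 89 (limma adjusted p = 0.00236 and 0.0346). SWIP and wash, of the WASH complex that builds actin on endosomes, moved apart in X1, at 2.07 ± 0.15 and -1.68 ± 0.32 (limma adjusted p = 0.00549 and 0.0464). However, wash was dim, at 25.4, 14.3 and 13.0 in X1, 46.8 and 46.7 in line 89, and 73.0 and 48.9 in w1118. It did not pass after quantile normalization or with the hybridization controls (limma adjusted p = 0.0975 and 0.224), whereas SWIP passed in both (limma adjusted p = 0.00622 and 0.0157). The class II PI 3-kinase Pi3K68D rose by 1.52 ± 0.22 in X1 and by 1.93 in line 89 (limma adjusted p = 0.0245 and 0.0235).

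Markers of other tissues were read beside these genes. The 10 measured salivary gland markers summed to 35404 to 35650 in X1, 31457 to 33959 in line 89 and 35196 to 37212 in w1118, mostly from Eig71Ea and Eig71Ed. Among the other 8, Sgs3 was called higher and Sgs7 and sage lower in X1. The 5 fat body markers summed to 7687 to 9856 in X1, 12890 to 13306 in line 89 and 13555 to 14626 in w1118, and 2 of them were called lower in X1. The 7 hemocyte markers summed to 2258 to 3340 in X1, 3139 to 3259 in line 89 and 1844 to 1863 in w1118, mostly from crq. Of these 7, 0 were called higher and 2 lower in X1 (NimC1 and Ppn), and crq was not called. Hml stayed at or under 54.7 and eater at or under 21.6 on every array. Malpighian tubule is rich in the pump of epithelia. Its 7 measured markers summed to 228 to 378 in X1, 196 to 383 in line 89 and 290 to 312 in w1118, with 0 higher and 2 lower in X1. Eaat2, without a call, read 191, 96.1 and 86.6 in X1, 24.2 and 76.9 in line 89, and 16.5 and 65.8 in w1118. The 7 midgut markers summed to 212 to 258 in X1, 272 to 289 in line 89 and 281 to 318 in w1118, with 1 higher and 2 lower in X1. The 5 muscle markers summed to 139.9 to 238 in X1, 197 to 258 in line 89 and 259 to 274 in w1118, with 0 higher and 1 lower in X1. The 7 testis markers, mostly Mst87F in X1, summed to 349 to 538 in X1, 241 to 368 in line 89 and 219 to 226 in w1118. Of these 7, 1 was called higher and 1 lower in X1. The part of RNA from other tissues in the changes above was not tested.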

How the data were processed

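The authors deposited dChip intensity values, 1 per probe set and array, normalized to 1 baseline array with a median intensity of 145, per the labels and the series text. Which dChip version and model they used is not given in the sources used here. In all, the table had 18952 probe sets, of which 183 were controls. Gene names came from GEO's platform annotation, which gave several symbols for 402 fly probe sets and none for 4720.

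Intensities were floored at 16 and tested on the log2 scale with limma 3.58.1 (lmFit and eBayes, two-sided) in R 4.3.3. X1 against w1118 used those 5 arrays. The line 89 comparisons used all 7 in 3 groups. The tests were checked on simulated data. The number of arrays limits the precision.

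Genes named with values were those called, the brightest of each complex, and those past 2-fold by copy number with at least 100 units. Other genes were named after their values were seen. Companion lists gave up to 3 called genes per direction. The genes and lists were chosen with earlier results of these data known. Alternatives were 2 other scalings, floors of 1 and 64, a filter at 100 units, other variance models, other groupings and leaving out each array. Promoters were not analysed here.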

Additional observations from a re-analysis of the deposited data

Results flagged for a closer look

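Vps16B was singled out because it alone of the 57 genes was called between X1 and line 89, so that test is not separate support. X1 and line 89 also stood on opposite sides of w1118. Vps16B read 50.3, 58.4 and 61.6 in X1, 297 (2 copies) and 257 (1 copy) in line 89, and 188 and 156 in w1118. The log2 change was -1.60 in X1 and 0.69 in line 89, both against the same w1118 arrays, and the difference of X1 minus line 89 was -2.29 (limma adjusted p = 0.013). It held in 13 of 16 alternatives, at -2.39 to -2.06 in all 16. It was lost at an adjusted p under 0.01 and without X1 replicate 2 or X1 replicate 3. Vps33B, of the same complex, lay below w1118 in both lines.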

How the results depend on the processing

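The w1118 group had 2 arrays and line 89 had 1 per copy number, so single arrays weigh heavily. For X1 against w1118, 10 genes were higher and 7 lower as reported. Higher genes numbered 4 after quantile normalization, 2 with a floor of 1, 2 with a floor of 64, 2 without variance moderation, 1 at an adjusted p under 0.01 and 1 with all 5 GAL4 arrays as 1 group. Lower genes numbered 2 after scaling to the hybridization controls, 4 with a floor of 64, 3 without variance moderation, 2 at an adjusted p under 0.01 and 0 with all 5 GAL4 arrays as 1 group. Leaving out 1 array gave 1 to 12 higher and 2 to 9 lower. With the replicate number as a block, 0 were higher and 0 lower, and 15 genes and 4491 probe sets had an unadjusted p under 0.05. X1 and w1118 share only 2 numbers. Deviations of same-numbered arrays from their group means correlated at r = -0.05 and -0.01. The 2 w1118 arrays deviate as mirror images, so this check cannot settle whether the numbers pair the samples.

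For line 89 against w1118, 0 genes were higher and 0 lower as reported. There were 3 higher after scaling to the hybridization controls, 1 higher with a floor of 1, 1 lower after quantile normalization and 1 lower with the filter at 100 units. Leaving out 1 array gave 0 to 3 higher and 0 to 1 lower. For X1 against line 89, with 0 higher and 1 lower as reported, 0 were lower at an adjusted p under 0.01, and leaving out 1 array gave 0 to 4 higher and 0 to 3 lower. For copy number, with 6 higher and 2 lower, 5 were lower after scaling to the hybridization controls and 1 with a floor of 64.

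VhaM9.7-b turned to -0.11 after quantile normalization. The other 16 genes called in X1 against w1118 kept their sign in every alternative run, apart from Vha36-2 at 0 with a floor of 64. Vps51, Vps16B and VhaPPA1-1 were called in 15 of 17 alternatives, losing the call only with the replicate block and with all 5 GAL4 arrays as 1 group. Vha16-1 was called in 11 of 17, also with all 5 GAL4 arrays as 1 group. The other 13 were called in fewer: Vps16A in 9, Vps33B in 8, VhaAC45RP, Vps24 and Vps26 in 7, Vps2 and Vha26 in 6, Vha36-1 and Vps29 in 5 and VhaM9.7-b in 3 of 17, and Vps13D in 7, Vha36-2 in 5 and Vha16-2 in 3 of 16. The cause of these losses was not tested.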
